A study of Mus musculus with 8 samples.

Results

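The genes described here are those of the PCGF paralogs and of subunits of canonical PRC1: *Pcgf2*, *Bmi1*, *Pcgf3*, *Pcgf5*, *Pcgf6*, *Cbx2*, *Cbx7*, *Cbx8* and *Phc2*. These 9 genes were taken by symbol from the 23284 symbols in each of 2 deposited RNA-seq tables, and all 9 passed the filter on low values in both. The question was which paralogs are the most abundant in mouse hematopoietic progenitors, and whether any of them is higher where *Pcgf1* is deleted. The tables cover 2 cell types with 4 libraries each, 2 labelled *Pcgf1* fl/fl (control) and 2 labelled *Pcgf1* -/- (*Pcgf1*-KO). IdHPCs are bone marrow progenitors that are kept in an immature state by forced expression of Id3 and grown on TSt4 stromal cells with IL7, SCF and Flt3 ligand. LMPPs are primary lymphoid-primed multipotent progenitors, and their label gives the same culture conditions. All libraries carry the strain label B6CBAF1/J. By the study's methods the *Pcgf1*-KO cells came from mice with ERT2-Cre, a recombinase that enters the nucleus after 4-OHT, and the control LMPPs lacked ERT2-Cre but also received 4-OHT. The treatment of the control IdHPCs of these libraries is not stated in the sources used here, although in another experiment of the study control IdHPCs received ethanol in place of 4-OHT. The age of the mice is not given in the labels. The study describes its RNA-seq replicates as biologically independent, and the labels do not name the culture or animal of each library.

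PRC1 is a ubiquitin ligase of chromatin that marks histone H2A. RING1A or RING1B (genes *Ring1* and *Rnf2*) pairs with a PCGF protein, and the PCGF protein decides which other subunits join. PCGF2 and BMI1 (also called PCGF4) form canonical PRC1, in which a CBX protein reads methylated histone H3 and a PHC protein joins complexes to each other through its SAM domain. PCGF1, PCGF3, PCGF5 and PCGF6 form variant complexes that carry RYBP or YAF2 in place of CBX and PHC. PCGF1 pairs with BCOR and KDM2B, which binds unmethylated CpG islands, PCGF3 and PCGF5 are close paralogs that share partners such as AUTS2, and PCGF6 works with MGA, MAX and L3MBTL2. In hematopoiesis BMI1 is best known as a guardian of stem cell self-renewal that represses the *Cdkn2a* locus.

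Values were CPM, reads scaled to the total of their library, summed over the exons listed for a gene. The libraries held 9611759 to 25292626 reads on distinct exons, and 1 read was worth 0.0287 to 0.0757 CPM. In IdHPCs, reads on the deleted exons 2 to 7 of *Pcgf1* numbered 193 and 173 in the controls and 15 and 15 in the *Pcgf1*-KO libraries. In LMPPs these reads went against 2 of the 4 labels. The library labelled control 1 had 84 and the one labelled control 2 had 0, while the libraries labelled *Pcgf1*-KO 1 and 2 had 76 and 0. No LMPP library was moved to another group. The CPM of each member in LMPPs is therefore given by library, and its comparison by label is also given without the libraries labelled control 2 and *Pcgf1*-KO 1. Over 12136 genes, the SD of the log2 difference between 2 LMPP libraries was 0.212 for the pair numbered 1, 0.213 for the pair numbered 2 and 0.426 to 0.464 for the other pairs. In IdHPCs, the library *Pcgf1*-KO 2 stood apart by its coverage, where 32.0% of reads fell on 3′ end exons, against 26.1% to 27.9% in the remaining 3.

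Markers of progenitors were present in both cell types. In IdHPCs, *Flt3* was at 425 to 631 CPM and *Cd34* at 105 to 247 CPM, and in LMPPs at 366 to 440 and 721 to 800 CPM. The 20 stromal markers, those of the feeder cells, summed to 5084 and 4330 CPM in the control IdHPCs and to 9782 and 7200 CPM in the *Pcgf1*-KO IdHPCs, with 2 of the 18 tested called higher and *Dcn* and *Lum* at 0 in every library. In LMPPs they summed to 68.3 to 102 CPM. Both *Pcgf1*-KO IdHPC libraries held a higher stromal sum than both controls, and its part in the members' values was not tested. In bulk libraries fewer cells of a type and less RNA per cell cannot be told apart.

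None of the 9 members was called as different between *Pcgf1*-KO and control IdHPCs (limma on log2(CPM + 1), Benjamini-Hochberg adjustment over 12272 genes). Their differences ran from −0.36 (*Cbx8*) to 0.34 (*Phc2*) with a median of −0.17, against a median of 0.01 over all genes tested. The smallest adjusted p among them was 0.497. *Pcgf1* itself was not called by this test either (adjusted p = 0.126, limma), so the test cannot show that a member is unchanged. Across all genes, 30 (0.244%) were called higher and 31 (0.253%) lower. On recovered reads, edgeR's exactTest called 450 genes (3.67%) higher and 159 (1.3%) lower and again 0 of the 9. In 2 members, *Pcgf2* and *Phc2*, both *Pcgf1*-KO libraries lay above both controls, as did 25.6% of all genes. In 3 members, *Pcgf6*, *Cbx7* and *Cbx8*, both lay below, as did 21.4% of all genes.

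**Figure D1:**
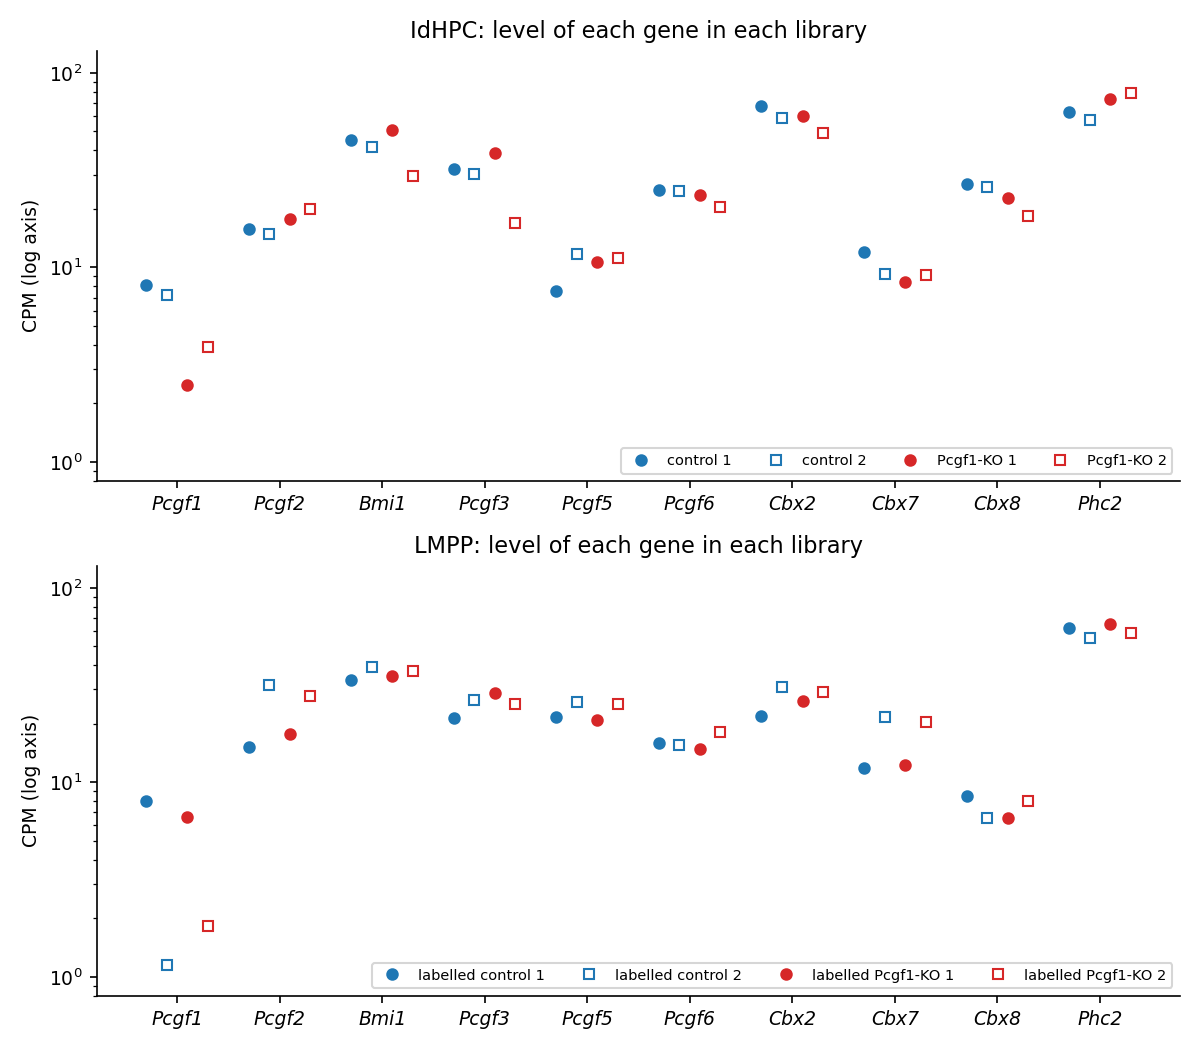
CPM (log axis) of *Pcgf1* and the 9 members in each library of IdHPCs (top) and LMPPs (bottom), 1 point per library, with filled circles for replicate 1 and open squares for replicate 2. In IdHPCs *Bmi1* and *Pcgf3* are low in *Pcgf1*-KO 2 alone, and in LMPPs *Pcgf2* and *Cbx7* are high in the libraries labelled control 2 and *Pcgf1*-KO 2.

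*Pcgf1* itself, on chromosome 6 (chr6:83028380-83030841 of NCBIM37, plus strand), was at 8.14 and 7.22 CPM in control IdHPCs and at 2.49 and 3.91 CPM in the *Pcgf1*-KO. The groups did not overlap, and the difference over the whole gene was −1.07 (95% interval −1.72 to −0.41, adjusted p = 0.126, limma). Exons outside the deletion had 56 and 68 reads in the *Pcgf1*-KO, or 1.97 and 3.20 CPM. Control libraries had 73 and 79 there, or 2.24 and 2.26 CPM, so that the groups overlapped.

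*Pcgf2* (chr11:97550137-97561811, minus strand), the canonical paralog also known as MEL18, was at 15.7 and 14.8 CPM in control IdHPCs and at 17.7 and 19.9 CPM in *Pcgf1*-KO IdHPCs. It was the Pcgf paralog with the largest difference above 0, and even so the difference was small, 0.28 with an interval of −0.27 to 0.83 (adjusted p = 0.627, limma). As a ratio of CPM + 1 the interval reached from 0.832 to 1.78. Without the 3′ end exon the difference was 0.14, and with that exon alone it was 0.50.

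*Bmi1* (chr2:18598645-18608256, plus strand), the other canonical paralog, was at 45.2 and 41.8 CPM in the controls and at 50.8 and 29.5 CPM in the *Pcgf1*-KO. The 2 *Pcgf1*-KO libraries lay on either side of the controls. The difference was −0.16 (interval −0.78 to 0.45, adjusted p = 0.823, limma), and it was 0.22 without *Pcgf1*-KO 2.

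*Pcgf3* (chr5:108890251-108935995, plus strand), of a variant complex, split in the same way. It was at 31.9 and 30.3 CPM in the controls and at 38.8 and 16.8 CPM in the *Pcgf1*-KO, a difference of −0.27 (interval −1.03 to 0.49, adjusted p = 0.753, limma) that was 0.31 without *Pcgf1*-KO 2. Of the 9 members it spread most over libraries.

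The low values of *Bmi1* and *Pcgf3* in *Pcgf1*-KO 2 lay mostly in exons upstream of the last. Of the *Bmi1* reads, 64.6% fell on the exon at the 3′ end in *Pcgf1*-KO 2, against 44.2% to 48.97% in the other 3 IdHPC libraries. For *Pcgf3* these shares were 60.9% against 45.4% to 50.2%. *Pcgf3* was low in *Pcgf1*-KO 2 on its 3′ end exon too, at 10.3 CPM against 15.2 to 17.6 CPM. When only the 3′ end exon of each gene was used, an alternative chosen after the data were seen, the difference of *Bmi1* was 0.07. These values move with the excess of 3′ end reads in that library, and its part in them was not tested.

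**Figure D2:**
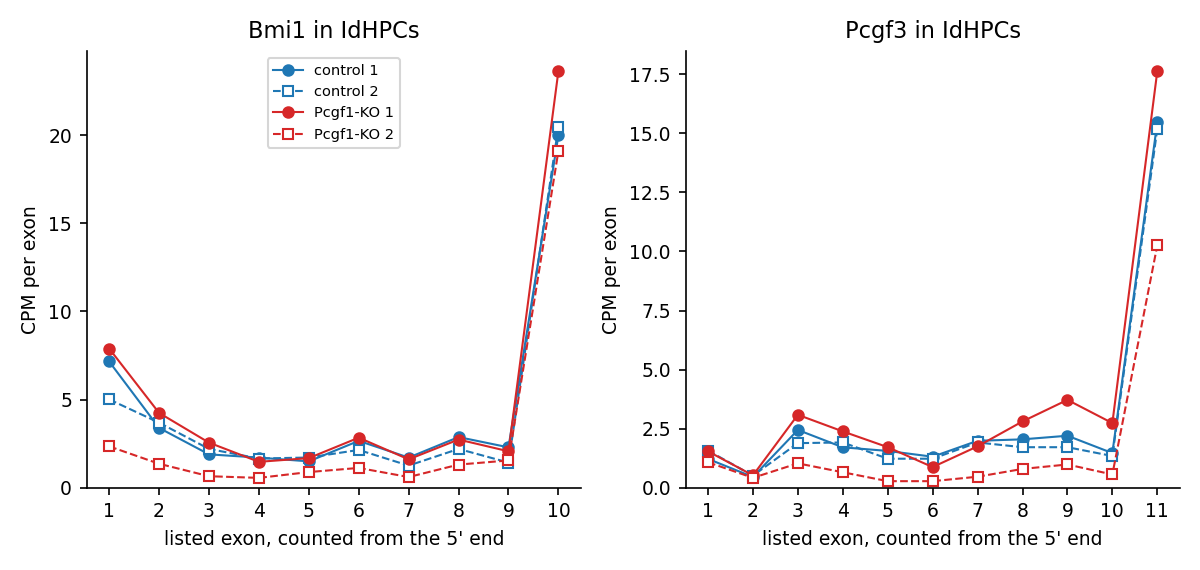
CPM on each listed exon of *Bmi1* (left) and *Pcgf3* (right) in the 4 IdHPC libraries, with exons counted from the 5′ end. In *Pcgf1*-KO 2 (open red squares) the values lie below the other libraries on most exons before the last, and on the last exon of *Bmi1* the 4 libraries lie close together.

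*Pcgf5* (chr19:36453557-36530682, plus strand), the close paralog of *Pcgf3*, was at 7.56 and 11.7 CPM in control IdHPCs and at 10.7 and 11.2 CPM in the *Pcgf1*-KO. The groups overlapped, and the difference was 0.20 (interval −0.44 to 0.83, adjusted p = 0.785, limma). It was −0.09 without control 1, the library with the lowest value.

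*Pcgf6* (chr19:47108109-47125380, minus strand) was at 25.0 and 24.6 CPM in the controls and at 23.6 and 20.4 CPM in the *Pcgf1*-KO. The difference of −0.17 (interval −0.70 to 0.36, adjusted p = 0.773, limma) had the upper bound nearest to 0 of the 5 paralogs, 1.28 as a ratio. It was −0.071 without *Pcgf1*-KO 2 and −0.33 without the 3′ end exon. For the 5 paralogs together, CPM per kb (CPM divided by transcript length) summed to 42.6 and 43.5 in control IdHPCs and to 47.6 and 38.9 in the *Pcgf1*-KO. The sums in the *Pcgf1*-KO lay on either side of those in the controls.

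The 3 CBX members had differences below 0 in IdHPCs, and none passed the test. *Cbx2* (chr11:118884276-118892584, plus strand), whose protein also compacts nucleosomes, was at 67.8 and 58.8 CPM in the controls and at 60.1 and 49.4 CPM in the *Pcgf1*-KO (difference −0.21, interval −0.71 to 0.29, adjusted p = 0.702, limma). *Cbx7* (chr15:79746237-79801549, minus strand), the CBX gene of self-renewing stem cells, was at 12.0 and 9.26 CPM in the controls and at 8.46 and 9.13 CPM in the *Pcgf1*-KO (difference −0.24, interval −0.84 to 0.36, adjusted p = 0.72, limma). *Cbx8* (chr11:118897619-118902283, minus strand), which lies close to *Cbx2*, was at 27.0 and 25.9 CPM in the controls and at 22.6 and 18.4 CPM in the *Pcgf1*-KO. Its difference of −0.36 (interval −0.90 to 0.18, adjusted p = 0.528, limma) was the lowest among the members. The difference of *Cbx2* was −0.71 without the 3′ end exon and −0.068 without *Pcgf1*-KO 2, that of *Cbx7* was −0.067 without control 1 and −0.41 without control 2, and that of *Cbx8* was −0.21 without *Pcgf1*-KO 2.

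*Phc2* (chr4:128331982-128430125, plus strand), a polyhomeotic gene whose product holds canonical PRC1 in clusters, was at 63.0 and 57.4 CPM in control IdHPCs and at 73.7 and 78.7 CPM in the *Pcgf1*-KO. Both *Pcgf1*-KO libraries were above both controls, by 0.34 (interval −0.14 to 0.81, adjusted p = 0.497, limma), with an upper bound of 1.75 as a ratio. Without the 3′ end exon *Phc2* was at 33.6 and 29.0 CPM in control IdHPCs, the *Pcgf1*-KO was at 36.4 and 32.1, the groups overlapped, and the difference was 0.13, against 0.51 on that exon alone, an alternative chosen after the data were seen. Of the *Phc2* reads, 59.2% fell on that exon in *Pcgf1*-KO 2 and 46.7% to 50.6% in the other 3 IdHPC libraries, and the part of this in the difference was not tested.

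**Figure D3:**
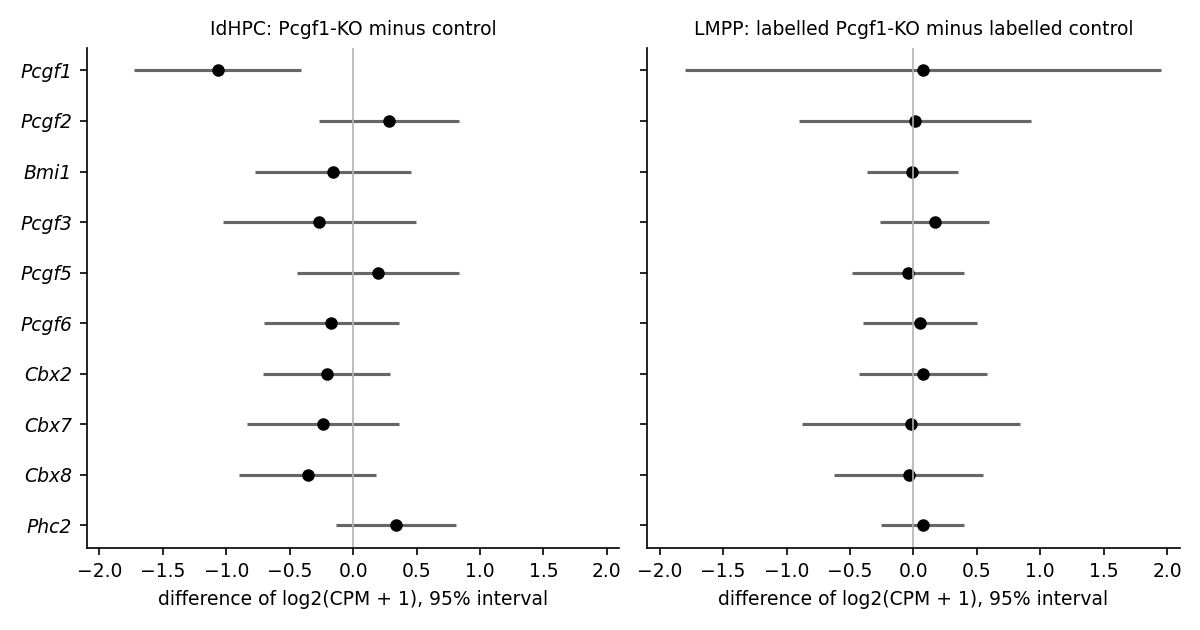
Difference of mean log2(CPM + 1) between libraries labelled *Pcgf1*-KO and control in IdHPCs (left) and LMPPs (right), 2 libraries against 2. Points are the differences from limma and bars their 95% intervals, and the interval of each of the 9 members includes 0, while that of *Pcgf1* in IdHPCs runs from −1.72 to −0.41.

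In LMPPs, 0 of 12136 genes were called by label in either direction (0% by limma and 0% by edgeR's exactTest, with 1 gene at an unadjusted p under 0.05 in limma and 0 called by the quasi-likelihood test or DESeq2). Among the 9 members the differences by label ran from −0.04 to 0.17, and in 0 of them did both libraries labelled *Pcgf1*-KO lie above or below both labelled controls, against 5.92% above and 6.25% below over all genes. With 2 libraries that go against their labels, this comparison cannot show whether a paralog follows the loss of *Pcgf1*.

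Library by library, *Pcgf2* varied most among the members in LMPPs. It was at 15.2 CPM in the library labelled control 1, at 31.6 in control 2, at 17.6 in *Pcgf1*-KO 1 and at 27.8 in *Pcgf1*-KO 2. The higher values were those of the libraries labelled control 2 and *Pcgf1*-KO 2, which had 0 reads on *Pcgf1* exons 2 to 7 and which were each other’s nearest library over all genes. The difference by label was 0.01 (interval −0.90 to 0.93). Without the 2 libraries that go against their labels, the library labelled *Pcgf1*-KO 2 was 0.83 above the one labelled control 1, a difference of 1 library from 1, for which there is no test. Over all genes tested the lower and upper quartile of that difference ran from −0.18 to 0.17. Reads on *Pcgf1* exons 2 to 7 and the replicate number divide the LMPP libraries in the same way. Their parts in the difference of *Pcgf2* cannot be told apart.

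*Cbx7* showed the same order of libraries, at 11.8 CPM in the library labelled control 1, 21.6 in control 2, 12.2 in *Pcgf1*-KO 1 and 20.4 in *Pcgf1*-KO 2. It lay 0.74 higher in the library labelled *Pcgf1*-KO 2 than in the one labelled control 1, again 1 library against 1. *Cbx2* was at 21.8, 31.1, 26.1 and 29.1 CPM in the same order of libraries, and *Pcgf5* at 21.7, 26.0, 21.0 and 25.2 CPM. Both had their highest values in the libraries labelled control 2 and *Pcgf1*-KO 2. These 2 libraries were also each nearest to the other over all genes. How many genes have this order was not counted, since it sets the libraries in groups other than those of their labels. Whether the members stand out by this order is therefore not known. The differences of 1 library from 1 were 0.40 for *Cbx2* and 0.21 for *Pcgf5*.

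Each of the remaining members spanned a narrower range than *Pcgf2* and *Cbx7* over the 4 LMPP libraries. *Bmi1* was at 33.8 CPM in the library labelled control 1, 39.2 in control 2, 35.2 in *Pcgf1*-KO 1 and 37.2 in *Pcgf1*-KO 2, a difference by label of −0.01 with the interval −0.37 to 0.35, and *Phc2* was at 62.3, 55.5, 65.1 and 58.8 CPM in the same order of libraries (interval −0.25 to 0.40). The highest values of *Bmi1* and the lowest of *Phc2* were also those of the libraries labelled control 2 and *Pcgf1*-KO 2. *Pcgf3* was at 21.5, 26.5, 28.9 and 25.1 CPM, with its highest value in the library labelled *Pcgf1*-KO 1. *Pcgf6* was at 15.9, 15.5, 14.8 and 18.1 CPM and *Cbx8* at 8.55, 6.56, 6.59 and 8.02 CPM. Differences of the library labelled *Pcgf1*-KO 2 from the one labelled control 1 were 0.13 for *Bmi1*, −0.08 for *Phc2*, 0.21 for *Pcgf3*, 0.17 for *Pcgf6* and −0.08 for *Cbx8*.

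To compare paralogs with each other, CPM was divided by the length of a transcript model of GENCODE vM1 (build NCBIM37) in kb. In control IdHPCs *Bmi1* and *Pcgf6* were the most abundant, at 12.1 ± 0.67 and 11.8 ± 0.12 CPM per kb (mean ± SD, n = 2), and these 2 overlapped. *Pcgf1* (8.83 ± 0.75) and *Pcgf2* (8.69 ± 0.37) followed and overlapped as well, then *Pcgf5* (6.42 ± 1.94) and *Pcgf3* (4.03 ± 0.15), each below all libraries of the gene before it. *Bmi1* and *Pcgf2*, the canonical paralogs, made up 41.4% and 38.7% of the summed CPM per kb of the 6 paralogs, and *Pcgf1* 18.0% and 16.0%. The 2 tables were normalized separately, so that between cell types only shares and orders within a library are set side by side.

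With the length of all protein-coding exons, chosen after the data were seen, *Bmi1* was first in all 4 IdHPC libraries, at 11.5 and 10.7 CPM per kb in the controls, and *Pcgf6*, at 6.12 and 6.03, was below *Pcgf1*. The place of *Pcgf3* depended on its long last exon, of 6620 bases in a transcript of 7708. Without the exon at the 3′ end, *Pcgf3* was at 14.5 ± 0.89 CPM per kb in control IdHPCs, after *Bmi1* (20.9 ± 2.46) and *Pcgf6* (16.1 ± 0.57), with no overlap between these 3. *Pcgf1* (9.83 ± 0.89), *Pcgf2* (8.63 ± 0.16) and *Pcgf5* (7.95 ± 2.82) came after them, and *Pcgf5* overlapped both of the others. *Bmi1* stood first in both control IdHPC libraries and in *Pcgf1*-KO 1 when the 3′ end exon was left out. In *Pcgf1*-KO 2, the library with the excess of 3′ end reads, it came after *Pcgf6* and *Pcgf2*, at 9.36 CPM per kb.

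In LMPPs, *Pcgf5* took a larger place than in IdHPCs. Over all exons it was at 14.5, 17.4, 14.0 and 16.8 CPM per kb in the libraries labelled control 1, control 2, *Pcgf1*-KO 1 and *Pcgf1*-KO 2, the highest paralog in 3 of the 4 and second to *Pcgf2* (18.0) in the library labelled control 2. Its share of the 6 paralogs was 26.8% to 29.7%, against 9.72% to 17.2% in the 4 IdHPC libraries. *Bmi1* was at 9.40 to 10.9 CPM per kb, *Pcgf2* at 8.65 to 18.0, *Pcgf6* at 7.07 to 8.62 and *Pcgf3* at 2.79 to 3.75. Without the 3′ end exon *Pcgf5* (17.1 to 21.9 CPM per kb) and *Bmi1* (16.0 to 22.5) overlapped, and each led in 2 of the 4 libraries. The ratio of *Bmi1* to *Pcgf2* per kb was 1.38 to 1.41 in both control IdHPCs and in *Pcgf1*-KO 1 and 0.725 in *Pcgf1*-KO 2, and in LMPPs it ran from 0.607 (labelled control 2) to 1.09 (labelled control 1). Without the 3′ end exon this ratio was 2.66 and 2.19 in the control IdHPCs, 2.59 and 0.956 in the *Pcgf1*-KO, and above 1 in every LMPP library, from 1.15 to 1.95. By the length of all protein-coding exons, *Bmi1* was above *Pcgf2* also in *Pcgf1*-KO 2 of the IdHPCs (7.52 against 7.23 CPM per kb) and in the LMPP library labelled *Pcgf1*-KO 1 (8.96 against 6.41).

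**Figure D4:**
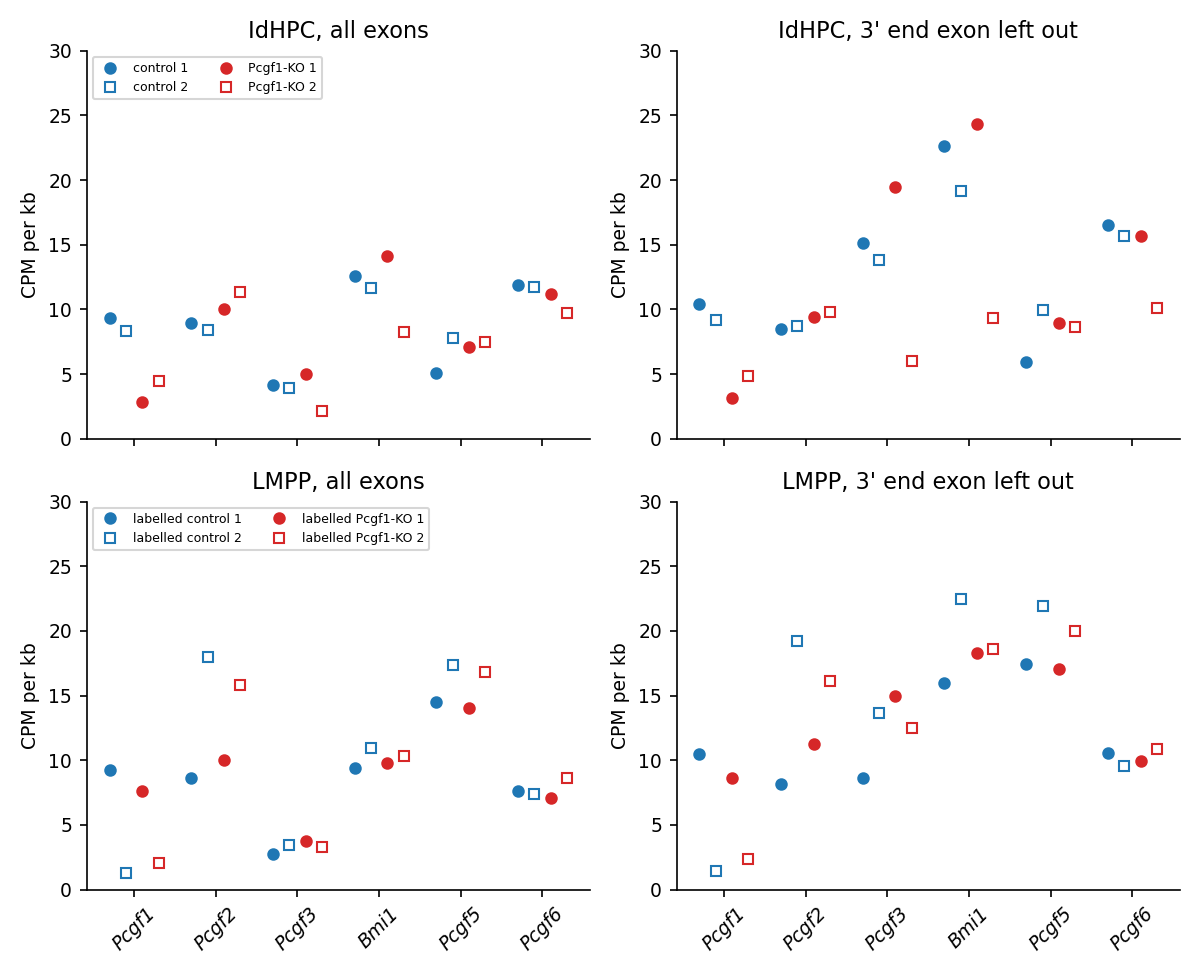
CPM per kb of the 6 Pcgf paralogs in each library, over all exons (left) and with the exon at the 3′ end left out (right), for IdHPCs (top) and LMPPs (bottom). *Pcgf3* has rank 5 or 6 of the 6 in each library over all exons and rank 2 to 5 without the 3′ end exon, and over all exons *Pcgf5* is the highest paralog in 3 of the 4 LMPP libraries and lies below *Bmi1*, *Pcgf2* and *Pcgf6* in each IdHPC library.

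Of the 3 CBX members, *Cbx2* had the highest level over all exons in control IdHPCs (16.6 ± 1.67 CPM per kb), followed by *Cbx8* (7.39 ± 0.21) and *Cbx7* (3.66 ± 0.66), with no overlap between neighbours. All 3 were below *Cbx6* (20.5 ± 0.79), which is not a member. In LMPPs *Cbx2* was at 5.73 to 8.16 CPM per kb and overlapped *Cbx7* (4.07 to 7.46), and *Cbx8* was the lowest at 1.83 to 2.39. These orders are over all exons, and the 3′ end exon held 50% to 91.7% of the reads of the 3 members. Without it *Cbx8* was above *Cbx7* in the LMPP libraries labelled control 1 (11.7 against 8.22 CPM per kb) and *Pcgf1*-KO 1 (7.15 against 6.92) and below it in the other two, and *Cbx8* had the higher mean in control IdHPCs (31.1 ± 4.72), against 25.1 ± 4.35 for *Cbx2*, whose values overlapped it. *Cbx6* shares exonic sequence with *Npcd* on its own strand, so that its reads may include those of another gene.

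*Phc2* was the most abundant of the PHC genes in all 8 libraries, over all exons and without the 3′ end exon. In control IdHPCs it was at 15.5 ± 1.02 CPM per kb, against 4.17 ± 0.79 for *Phc1* and 2.63 ± 0.58 for *Phc3*, and made up 73.6% and 65.5% of the 3. In LMPPs its share was 47.3% to 60.6%, and that of *Phc1* 27.7% to 36.5%. Few reads lay on exons of the long form of *Phc2* alone. GENCODE vM1 gives a long transcript of 15 exons from position 128366039 of chromosome 4 and a short one of 7 exons from 128404829, and the gene's first annotated base is 128331982. In IdHPCs the 8 exons of the long form alone held 22 and 62 reads in the controls and 17 and 27 in the *Pcgf1*-KO, while the 5 inner exons of both forms held 907 and 813 and then 872 and 578. The first exon of the short form, of 286 bases, was at 17.9 and 13.5 CPM per kb in the controls and 17.9 and 12.3 in the *Pcgf1*-KO. Per kb the long form's own exons were at 1.07% to 4.17% of the shared exons.

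In LMPPs this share was 4.37% in the library labelled control 1, 13.8% in control 2, 3.81% in *Pcgf1*-KO 1 and 8.56% in *Pcgf1*-KO 2. It was highest in the libraries labelled control 2 and *Pcgf1*-KO 2, on 104 and 51 reads against 29 and 32. The first exon of the short form alone held 40 to 60 reads there, and the first exons of longer forms at most 4 reads in any of the 8 libraries. Since the length used for *Phc2* above was that of the long transcript, its level per kb is a low estimate, and the inner shared exons were at 26.9 to 35.3 CPM per kb in IdHPCs and 27.3 to 36.4 in LMPPs.

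**Figure D5:**
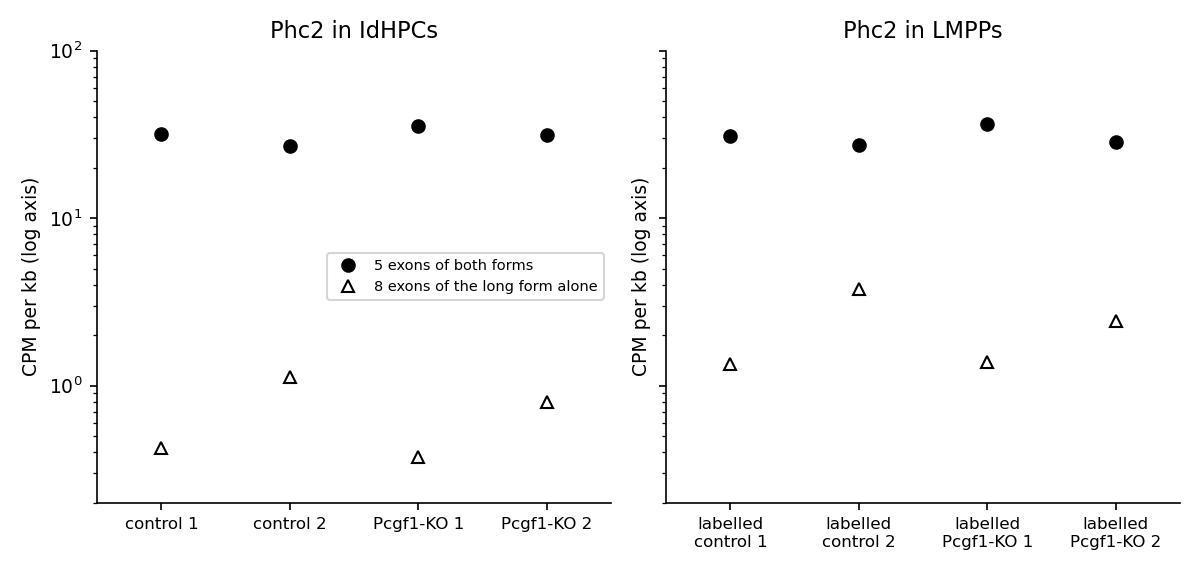
CPM per kb (log axis) of *Phc2* on the 5 inner exons that both forms share (filled circles) and on the 8 exons of the long form alone (open triangles), in each library of IdHPCs (left) and LMPPs (right). The shared exons lie at 26.9 to 36.4 CPM per kb and those of the long form between 0.377 and 3.78.

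The 3 start regions of *Phc2* show what distinguishes them in sequence, and are printed for that reason from RefSeq (build GRCm38.p6, plus strand), 250 bases before to 50 after each start, with the CpG dinucleotides in capitals. Each matched NCBIM37 exactly once, and the third, chr4:128404565-128404864 there, spans the first base of the short transcript. The first includes the first annotated base of the gene, and the second ends just before the long transcript of 15 exons.
Phc2 start 1, chr4:128654452-128654751: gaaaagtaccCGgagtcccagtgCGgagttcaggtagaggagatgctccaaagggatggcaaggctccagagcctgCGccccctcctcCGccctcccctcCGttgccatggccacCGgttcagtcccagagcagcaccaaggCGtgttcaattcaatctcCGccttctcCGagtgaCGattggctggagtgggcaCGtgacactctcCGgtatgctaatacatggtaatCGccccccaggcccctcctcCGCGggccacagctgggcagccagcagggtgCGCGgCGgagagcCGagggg
Phc2 start 2, chr4:128688488-128688787: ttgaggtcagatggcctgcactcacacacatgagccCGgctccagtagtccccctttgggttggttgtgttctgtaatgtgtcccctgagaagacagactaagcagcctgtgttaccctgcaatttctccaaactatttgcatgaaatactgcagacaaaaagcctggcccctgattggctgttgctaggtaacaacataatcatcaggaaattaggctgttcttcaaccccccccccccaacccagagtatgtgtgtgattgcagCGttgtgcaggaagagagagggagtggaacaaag
Phc2 start 3, chr4:128727321-128727620: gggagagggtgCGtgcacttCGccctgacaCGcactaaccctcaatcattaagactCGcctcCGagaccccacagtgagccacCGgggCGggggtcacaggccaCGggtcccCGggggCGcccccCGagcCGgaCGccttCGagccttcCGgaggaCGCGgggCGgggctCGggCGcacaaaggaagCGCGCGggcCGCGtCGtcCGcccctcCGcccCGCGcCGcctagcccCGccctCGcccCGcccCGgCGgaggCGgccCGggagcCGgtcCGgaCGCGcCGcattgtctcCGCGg

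The third region, at the short form, held 45 CpG, as many as or more than which only 1.93% of 32851 promoter windows of the same length held. The first held 19 and the second 2, and 28.1% and 85.9% of all windows held as many or more. The median over all windows was 7. The other members with an entry had 22 to 35 CpG in at least 1 window, except *Pcgf2* with 10, and *Cbx2* and *Pcgf1* had no entry. A count of CpG is a description of the sequence and no measure of PRC1 binding.

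Of 30 other PRC1 genes, 28 were tested in IdHPCs and 30 in LMPPs, and 0 were called in either. In IdHPCs 21 of the 28 lay below 0 and 7 above, with a median of −0.14. Over all 12272 genes tested, 6069 lay below 0 and 6203 above. Both *Pcgf1*-KO libraries lay below both controls in 11 of the 28 and above both in 2. The shares over all genes were 21.4% and 25.6%. Only 2 of the 28 had an unadjusted p under 0.05 in limma (*Phc3* and *Mga*). The catalytic subunit genes were *Ring1*, with control values of 29.1 and 26.4 CPM and *Pcgf1*-KO values of 25.9 and 31.9, and *Rnf2*, at 30.6 and 33.9 and then 33.4 and 21.9 CPM. Their differences were 0.05 and −0.24. Among alternative subunits, *Phc3* was at 24.2 and 33.2 and then 20.5 and 15.8 CPM (−0.63, interval −1.22 to −0.04, adjusted p = 0.318, limma). Of the *Phc3* reads, 85.7% fell on the 3′ end exon in *Pcgf1*-KO 2, against 61.6% to 70% in the other IdHPC libraries. The part of this in the difference of *Phc3* was not tested. *Cbx6* differed by 0.09 and *Phc1* by 0.35, where *Phc1* had control values of 13.9 and 18.2 CPM and *Pcgf1*-KO values of 20.2 and 20.8. In LMPPs *Phc1* was at 28.2 CPM in the library labelled control 1, 42.3 in control 2, 31.1 in *Pcgf1*-KO 1 and 40.9 in *Pcgf1*-KO 2, and by label it differed by 0.05.

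Over the 8 libraries, with each gene's log2(CPM + 1) centred on the mean of its table, the 3 members with the widest range were *Pcgf3* (1.16), *Pcgf2* (1.01) and *Cbx7* (0.82). Among 11236 genes tested in both tables, the one closest in pattern to *Pcgf3* was *Ptpn4* (Pearson r = 0.985), to *Pcgf2* *Gata3* (r = 0.989) and to *Cbx7* *Phf19* (r = 0.972). With 8 points that share libraries and their depth, such values are the largest of many and are given as a description. For *Pcgf3*, 368 genes had an r of 0.9 or more, for *Pcgf2* 148 and for *Cbx7* 43. Within the members the highest r was that of *Bmi1* with *Pcgf3* (0.948), which share the low value in *Pcgf1*-KO 2, and that of *Pcgf2* with *Cbx7* was 0.785.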

How the data were processed

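Poly(A) RNA of 8 libraries was sequenced. The authors counted reads and deposited CPM per exon, 284716 exons in each of 2 tables, aligned to mm9. The study's methods name HISAT2, the submitters' processing notes TopHat2 2.0.13 and edgeR. Whether counting used strand is not given in the sources used here. The methods' filter on CPM below 1 was not applied to the tables.

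Exons equal to the one listed before them in all 4 libraries of a table were counted once and exons were summed per symbol. Such repeats held 26.0% to 27.8% of reads and stay in the library totals. All deposited CPM values were whole multiples of 1 read (tolerance 1e-06 of a read, 100% of values). A read that spans exons may count on each. Counting error alone gives a floor of 3 reads, 0.086 to 0.227 CPM.

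Each table was fitted alone with limma 3.58.1 (R 4.3.3; eBayes with trend) on log2(CPM + 1) for genes that reached a CPM of 1 in any of the 4 libraries, Benjamini-Hochberg threshold 0.05, with 95% intervals from the same fit. Fold changes on this scale understate those of low genes. Count tests (edgeR 4.0.16 exactTest, which the methods name, and quasi-likelihood test; DESeq2 1.42.0) ran on recovered reads. On simulated data limma recovered 200 of 200 genes changed by a log2 fold of 2 in IdHPCs (12107 genes) and 199 of 200 in LMPPs (11441), with 16 and 7 false calls. Smaller changes were not simulated. The recovery therefore does not show that changes of the size seen in the members would be called. Lengths are those of the protein-coding GENCODE vM1 transcript whose exon number is closest to that in the table.

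Named were all 9 members and *Pcgf1*, 5 of 30 other PRC1 genes and any called (1 more that the rule names is not reported here), and the closest gene in pattern of the 3 members with the widest range. *Mga* was named after its values were seen. Members and lists were chosen with earlier results of these data known. The alternatives are given at the end. Protein sequences were not used here.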

Additional observations from a re-analysis of the deposited data

How the results depend on the processing

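Of the 9 members, 0 were called in either cell type under any alternative that kept 2 libraries in each group. In IdHPCs the counts of genes called higher and lower did change: 18 higher with a CPM of 1 in at least 2 libraries, 0 and 0 without a filter, 57 higher after median-ratio rescaling, 450 and 159 with exactTest, 77 and 48 with the quasi-likelihood test, 343 and 153 with DESeq2, 19 higher with all listed exons summed, 0 and 3 without the 3′ end exon, and 176 and 74 with it alone, the last chosen after the data were seen. Leaving out 1 library gave 0 to 222 higher and 15 to 565 lower, the extremes without control 2 and without *Pcgf1*-KO 1. With the replicate number as a block 486 and 187 were called, and in LMPPs 3 higher. Only 2 pairs exist, and the deviations of same-numbered libraries correlated at 0.147 in IdHPCs and 0.705 in LMPPs. In IdHPCs the numbers are therefore not shown to pair the libraries. In LMPPs same-numbered libraries were also the closest over all genes (SD of the log2 difference 0.212 and 0.213, against 0.426 to 0.464). The labels do not name the culture or animal of each library. The block called no member, and it called *Pcgf1* in IdHPCs (−1.07, adjusted p = 0.0252, limma).

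In IdHPCs, leaving out 1 library moved *Bmi1* between −0.54 and 0.22 and *Pcgf3* between −0.85 and 0.31, both upper values without *Pcgf1*-KO 2, and *Pcgf5* between −0.085 (without control 1) and 0.48. The same moved *Pcgf2* between 0.20 and 0.36, *Phc2* between 0.27 and 0.40, *Pcgf6* between −0.27 and −0.071, *Cbx2* between −0.35 and −0.068, *Cbx7* between −0.41 and −0.067 and *Cbx8* between −0.50 and −0.21. With the 3′ end exon alone *Bmi1* was at 0.067 and *Pcgf6* at 0.058. In LMPPs, leaving out 1 library moved *Pcgf1* between −0.96 and 1.11, *Pcgf2* between −0.49 and 0.52, *Bmi1* between −0.11 and 0.10, *Pcgf5* between −0.17 and 0.083, *Pcgf6* between −0.080 and 0.19, *Cbx2* between −0.17 and 0.32, *Cbx7* between −0.43 and 0.39, *Cbx8* between −0.21 and 0.13 and *Phc2* between −0.0092 and 0.16. By exactTest, quasi-likelihood test and DESeq2, *Pcgf1* was at −0.11, −0.10 and −0.11 and *Pcgf2* at −0.044, −0.047 and −0.043. *Cbx8* was at 0.018 without the 3′ end exon. With that exon alone, *Pcgf2* was at −0.17, *Bmi1* at 0.049, *Pcgf5* at 0.063, *Cbx2* at −0.029 and *Cbx7* at 0.11, and 1 gene was called higher. Without both libraries that go against their labels, *Pcgf1* was at −1.68, *Bmi1* at 0.13, *Pcgf5* at 0.21, *Cbx7* at 0.74 and *Phc2* at −0.082. The cause was not tested.

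The share of *Bmi1* among the 6 paralogs in control IdHPCs, 23.3% per kb, was 26.8% without the 3′ end exon, 33.0% without division by length and 27.3% by the length of all protein-coding exons, a choice made after the data were seen. That of *Pcgf5* in the libraries labelled control in LMPPs, 28.7%, was 24.7%, 18.6% and 31.9%. Without division by length, *Bmi1* had the largest share in each LMPP library, and *Pcgf5* had rank 2 to 4. A level over all listed exons with their own lengths was not run, since the tables carry no lengths. With 2 libraries a group, the intervals of the members' differences in IdHPCs reach from −1.03 to 0.83.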

Other observations

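Markers of other cell types were also followed in both tables. In IdHPCs the 10 B cell markers had control sums of 71.7 and 182 CPM and *Pcgf1*-KO sums of 80.7 and 258, the higher value being that of replicate 2 in each group. The 10 mature myeloid markers summed to 31.0 to 47.3 CPM in IdHPCs, with *Elane*, *S100a8* and *S100a9* at 0 in every library, and to 2329 to 2639 CPM in LMPPs, where *Mpo*, the myeloperoxidase of granulocyte precursors, alone was at 1874 to 1996 CPM. The 10 T cell markers summed to 264 to 306 CPM in IdHPCs, a list that includes *Thy1*, also held by the stromal list, and to 23.8 to 29.9 CPM in LMPPs. The 10 erythroid markers summed to 169 to 272 and 230 to 322 CPM, and the 10 progenitor markers to 1505 to 2116 and 2994 to 3154 CPM. Apart from the 2 stromal markers in IdHPCs, 0 markers of these 6 lists were called in either table.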
